A study of Homo sapiens with 18 samples.

Results

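Transcripts of the Hippo pathway, of its coactivators YAP and TAZ and of a set of their target genes were followed in spheroids. The cells were MDA-MB-231, a long-established human line of triple-negative breast cancer. The set holds 36 genes, taken by gene symbol from an expected count table of 62710 genes, and each of the 36 was found once. Of them, 23 are pathway components and 13 are targets, and the CCN family, which also holds well known targets, was left out. All 36 passed the filter on low counts that kept 17030 genes of the table, although AMOT did so at under 1 CPM (read counts scaled to library size) in every library. The 18 polyA libraries, sequenced as 151 bp read pairs, form 6 groups of 3 from 2 genotypes and 3 conditions. The genotypes are labelled MMP14-KO (KO in what follows), in which the gene of a membrane-anchored collagen-cleaving metalloproteinase was targeted, and Wildtype (WT). Spheroids of 2000 cells were grown for 5 days in hanging droplets and were taken there, or 24 h or 48 h after they had been embedded in a collagen hydrogel. A sample held 100000 cells. Cells were freed from gels by collagenase (2 mg/ml, 37 °C), a step that only the gel samples had, so matrix, time, medium and digestion cannot be told apart when collagen is set against droplets. Clonal origin of the KO cells is not stated in the labels, and neither is the independence of replicates as cultures, so p-values measure the spread between these libraries, which may be technical.

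In the Hippo pathway the kinases encoded by STK3 and STK4, with the adaptor SAV1, activate the kinases LATS1 and LATS2 and their partners MOB1A and MOB1B. These phosphorylate YAP (YAP1) and TAZ (WWTR1), which are then kept out of the nucleus or degraded. Unphosphorylated YAP and TAZ enter the nucleus and switch on genes by binding the TEAD transcription factors. Stiff matrix, cell spreading and actin tension are known to favour the nuclear form. The regulation is largely at the protein level, which these libraries did not measure, and several pathway genes (AMOTL2, LATS2, AJUBA and NF2 among them) are themselves known as YAP-TAZ targets.

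Total counts per library ranged from 19819401 to 33352163. MMP14 averaged 155 ± 5.2 CPM in KO droplets, 153 ± 11.6 CPM in KO at 24 h and 148 ± 13.4 CPM in KO at 48 h, against 2045 ± 178, 1819 ± 139 and 1447 ± 143 CPM in the WT groups of the same conditions (SD, n = 3 each). Every KO library was below every WT library for the targeted gene, with some transcript left. Of markers of the line, VIM stood at 1930 to 3834 CPM and CD44 at 569.6 to 978 CPM, while of 4 epithelial and hormone receptor genes that are low in the line ESR1, PGR and CDH1 were under 1 CPM and EPCAM stood at 3.80 to 10.4 CPM. Marker lists of other cell types were not at 0 and moved with condition and genotype. The 6 leukocyte markers summed to 15.4 to 19.4 CPM in KO collagen and 36.7 to 44.3 CPM in KO droplets, and to 10.1 to 18.2 CPM in WT collagen and 30.3 to 34.4 CPM in WT droplets. CD14 led that list (7.34 to 29.5 CPM), with LYZ at 2.21 to 14.1 CPM, PTPRC at 0.274 to 1.17 CPM and CD3E at 0. The 6 endothelial markers summed to 25.8 to 35.7 CPM in KO collagen and 41.45 to 41.8 CPM in KO droplets, and to 16.8 to 27.7 CPM in WT collagen and 33.5 to 36.5 CPM in WT droplets, led by PECAM1 (8.10 to 34.1 CPM), with CDH5 and VWF under 1 CPM. The 8 fibroblast markers, led by COL1A1 and PDGFRB, summed to 44.6 to 59.7 CPM in KO collagen and 34.0 to 40.4 CPM in KO droplets, and to 37.4 to 52.5 CPM in WT collagen and 47.2 to 59.5 CPM in WT droplets, with DCN under 1 CPM. Their part in the results below was not tested. Replicates of a group correlated at 0.9865 to 0.9911 in log2 CPM across genes.

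In the collagen comparisons, each set of values below is described for KO and WT spheroids in turn, and a gene rose or fell where its adjusted p in edgeR's quasi-likelihood test was under 0.05. Adjustment was by the Benjamini-Hochberg method over the 17030 genes. Log2 fold changes are collagen over droplet, with their standard error (SE), and KO over WT where genotypes are compared.

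Most of the targets rose in collagen. At 24 h 10 of 13 targets rose and 1 fell in KO spheroids, and 11 rose and 1 fell in WT spheroids. Over all genes tested 25.5% rose and 25.7% fell in KO at 24 h, and 27.8% rose and 28.7% fell in WT. At 48 h again 10 rose and 1 fell in KO, where 25.8% and 23.6% of all genes did, and 11 rose and 1 fell in WT, where 27.7% and 27.5% did. The median log2 fold change of the 13 was 0.77 in KO and 1.00 in WT at 24 h, and 0.84 in KO and 0.85 in WT at 48 h, while the medians of all genes lay between -0.004 and 0.021. A list of 22 immediate-early genes, which respond to handling as well as to growth signals, moved at the same time, though not all 1 way. Of the 22, 19 rose and 0 fell in KO at 24 h, and 15 rose and 2 fell in KO at 48 h. In WT 17 rose and 0 fell at 24 h, and 15 rose and 5 fell at 48 h, beside the shares of all genes given above. The list summed to 5865 to 6181 CPM in KO at 24 h and 3595 to 3916 CPM in KO at 48 h, against 2061 to 2379 CPM in KO droplets. In WT it summed to 5492 to 6873 CPM at 24 h and 3277 to 3515 CPM at 48 h, against 2106 to 2357 CPM in droplets. The part of recovery from the gel in the rise of the targets was not tested. In bulk RNA fewer cells with a transcript and less of it per cell cannot be told apart.

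F3, which encodes tissue factor, the cell-surface starter of blood coagulation, had the highest fold change of the set in 3 of the 4 collagen comparisons, and ANKRD1 had it in WT at 48 h. F3 stood at 75.4, 75.01 and 80.1 CPM in KO droplets, 343, 309.9 and 326 CPM in KO at 24 h and 277, 310.4 and 313 CPM in KO at 48 h. In WT spheroids its values were 92.7, 104 and 91.4 CPM in WT droplets, 349, 399 and 409 CPM in WT at 24 h and 358, 381 and 438 CPM in WT at 48 h. All 6 collagen libraries of each genotype lay far above that genotype's droplets, and in each condition all KO libraries were below all WT libraries. The log2 fold change at 24 h was 2.09 (SE 0.0782, adjusted p = 2.38e-14) in KO and 2.01 (SE 0.0777, adjusted p = 2.8e-14) in WT, and at 48 h it was 1.97 in KO and 2.03 in WT.

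ANKRD1, a nuclear ankyrin-repeat protein first known from the heart and a widely used YAP readout, stood at 65.3, 68.95 and 64.98 CPM in KO droplets, 184, 199 and 216 CPM in KO at 24 h and 205, 169 and 227 CPM in KO at 48 h. WT values were 82.7, 91.1 and 73.04 CPM in WT droplets, 285, 265 and 312 CPM in WT at 24 h and 344, 310 and 377 CPM in WT at 48 h. Collagen libraries exceeded droplet libraries without overlap in both genotypes. The log2 fold change was 1.59 (SE 0.108, adjusted p = 4.97e-09) in KO and 1.80 (SE 0.107, adjusted p = 5.89e-10) in WT at 24 h, and 1.59 in KO and 2.06 in WT at 48 h. AXL, a receptor tyrosine kinase for GAS6, was at 265, 261 and 273 CPM in KO droplets, 563, 574 and 609 CPM in KO at 24 h and 646, 670 and 693 CPM in KO at 48 h. WT spheroids had 351, 345 and 339 CPM in WT droplets, 845, 982 and 979.5 CPM in WT at 24 h and 1092, 1078 and 1220 CPM in WT at 48 h. AXL was the most abundant target per kb of exon in collagen at 48 h in WT, and its KO and WT libraries did not overlap in any condition. It rose by 1.13 (SE 0.0603, adjusted p = 2.71e-12) in KO and 1.44 (SE 0.0606, adjusted p = 3.36e-14) in WT at 24 h, and by 1.33 in KO and 1.71 in WT at 48 h, on the log2 scale.

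**Figure D1:**
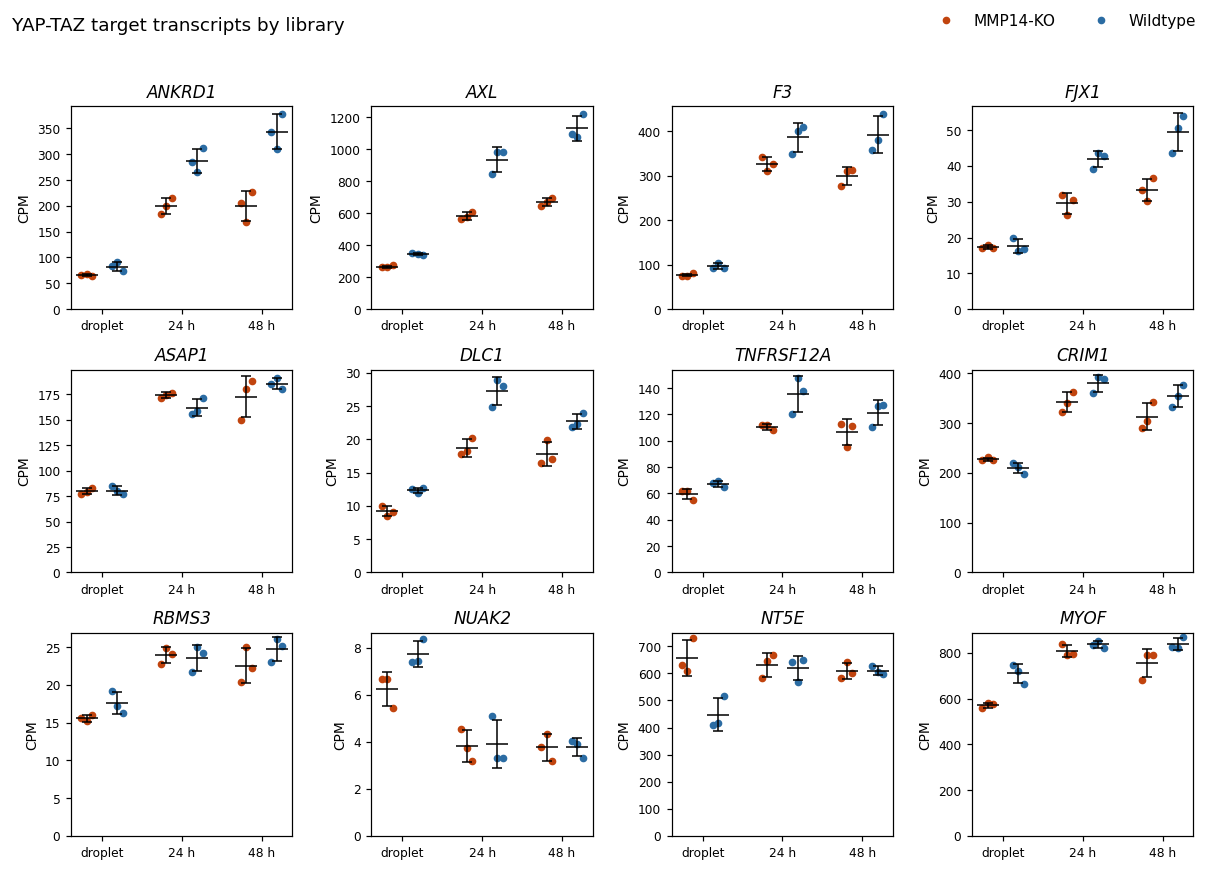
CPM of 12 of the 13 targets in each library (points), with the group mean (horizontal line) and SD (bars, n = 3), by condition, MMP14-KO left of Wildtype. IGFBP3 is not plotted, and NT5E and MYOF are plotted although the rule for values by library did not take them. The vertical axes are linear, start at 0 and differ between genes. F3, ANKRD1 and AXL were higher in collagen than in droplets in both genotypes, NUAK2 was lower, and AXL at 48 h stood at 646 to 693 CPM in KO and 1078 to 1220 CPM in WT.

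FJX1, the human relative of the Drosophila kinase four-jointed, stood at 17.01, 17.9 and 17.1 CPM in KO droplets, 31.8, 26.3 and 30.6 CPM in KO at 24 h and 33.2, 30.3 and 36.5 CPM in KO at 48 h. In WT it stood at 19.9, 16.2 and 16.7 CPM in WT droplets, 39.3, 43.6 and 42.9 CPM in WT at 24 h and 43.7, 50.5 and 54.1 CPM in WT at 48 h. The droplet libraries of the genotypes overlapped, and in collagen every KO library lay below every WT library. It rose by 0.77 (SE 0.0948) in KO and 1.26 (SE 0.0935) in WT at 24 h. ASAP1, a GTPase-activating protein for Arf at podosomes and focal adhesions, was at 77.2, 79.1 and 82.9 CPM in KO droplets, 172, 175 and 177 CPM in KO at 24 h and 149.7, 181 and 189 CPM in KO at 48 h. WT values were 84.7, 80.3 and 76.6 CPM in WT droplets, 156, 159 and 171 CPM in WT at 24 h and 185, 191 and 181 CPM in WT at 48 h. All collagen libraries were above the droplets, with log2 fold changes at 24 h of 1.13 (SE 0.0664) in KO and 1.01 (SE 0.0664) in WT. DLC1, another GTPase-activating protein, was scarce, at 9.99, 8.47 and 9.12 CPM in KO droplets, 17.7, 18.2 and 20.2 CPM in KO at 24 h and 16.4, 19.9 and 17.1 CPM in KO at 48 h. WT spheroids held 12.5, 11.9 and 12.6 CPM in WT droplets, 24.9, 28.9 and 28.1 CPM in WT at 24 h and 21.8, 22.3 and 24 CPM in WT at 48 h. Every KO library was below every WT library of its condition, and the gene rose by 1.03 (SE 0.0914) in KO and 1.15 (SE 0.0871) in WT at 24 h.

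TNFRSF12A, the receptor for the cytokine TWEAK, stood at 61.6, 62.2 and 55.4 CPM in KO droplets, 112, 112 and 108 CPM in KO at 24 h and 113, 95.1 and 112 CPM in KO at 48 h. WT spheroids had 67.6, 69.7 and 65.1 CPM in WT droplets, 120.4, 148 and 138 CPM in WT at 24 h and 111, 126 and 127 CPM in WT at 48 h. It rose in collagen in both genotypes, by 0.89 (SE 0.0765) in KO and 1.01 (SE 0.076) in WT at 24 h. CRIM1, a membrane protein that binds bone morphogenetic proteins, stood at 226, 231 and 225 CPM in KO droplets, 322, 340.3 and 362 CPM in KO at 24 h and 289.9, 305 and 343 CPM in KO at 48 h. WT values were 219, 212 and 199 CPM in WT droplets, 360.1, 392 and 388 CPM in WT at 24 h and 332, 353 and 377 CPM in WT at 48 h. All KO droplet libraries were above all WT droplet libraries without passing the test, the genotypes overlapped in collagen, and the rise at 24 h was 0.59 (SE 0.0632) in KO and 0.86 (SE 0.0635) in WT. RBMS3, an RNA-binding protein, was at 15.6, 15.2 and 16.1 CPM in KO droplets, 22.8, 24.9 and 24.1 CPM in KO at 24 h and 20.4, 24.98 and 22.3 CPM in KO at 48 h. In WT it was at 19.2, 17.3 and 16.3 CPM in WT droplets, 21.7, 24.99 and 24.2 CPM in WT at 24 h and 23.02, 26.1 and 25.2 CPM in WT at 48 h. Its rise was smaller, at 0.62 (SE 0.0841) in KO and 0.43 (SE 0.0833) in WT at 24 h.

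NUAK2, a kinase of the AMPK family that is known to act back on YAP, was the exception among the targets. It was at 6.66, 6.65 and 5.43 CPM in KO droplets, 4.55, 3.73 and 3.18 CPM in KO at 24 h and 3.79, 4.32 and 3.17 CPM in KO at 48 h. WT spheroids had 7.38, 7.46 and 8.35 CPM in WT droplets, 5.09, 3.32 and 3.32 CPM in WT at 24 h and 4.03, 3.93 and 3.32 CPM in WT at 48 h. Every collagen library was below every droplet library of its genotype, and the log2 fold change was -0.71 (SE 0.168, adjusted p = 0.0012) in KO and -0.99 (SE 0.164, adjusted p = 2.04e-05) in WT at 24 h. The remaining targets changed little or unevenly. MYOF, a ferlin of membrane repair, was at 682 to 839 CPM in KO collagen and 557 to 579.9 CPM in KO droplets, and at 821 to 871 CPM in WT collagen and 663 to 747 CPM in WT droplets, and it rose in all 4 comparisons by 0.24 to 0.50 on the log2 scale. NT5E, the ectonucleotidase CD73, rose in WT (0.47, SE 0.0848 at 24 h), and in KO its log2 fold change was -0.06 with a 95% interval of -0.24 to 0.13. IGFBP3, which binds insulin-like growth factors, passed in no collagen comparison. One KO library at 48 h stood apart for IGFBP3, at 259.8 CPM beside 89.3 and 79.2 CPM, and the other 15 libraries held 55.3 to 107 CPM.

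Hexamers recognised by the TEAD factors were looked for in the RefSeq promoter windows of these genes (GRCh38.p14, 250 bases before to 50 after a transcript start). The motif searched was CATTCC on either strand, with no second motif. Windows were found for 29 of the 36 genes. TEAD1, TEAD4, STK3, CRIM1, DLC1, ASAP1 and TNFRSF12A had none in the table. Of 41 windows of these 29 genes, 9 held the motif (22%), against 4928 of 35116 windows of all genes (14%). It was in 3 of 10 target windows and 6 of 31 component windows. The 5 windows printed here were chosen after the matches were seen. They are the 3 target windows with a match, and those of 2 components that rose, AMOTL2 and WTIP. Sequences run 5′ to 3′ on the strand of the gene, with each motif match in capitals.
ANKRD1: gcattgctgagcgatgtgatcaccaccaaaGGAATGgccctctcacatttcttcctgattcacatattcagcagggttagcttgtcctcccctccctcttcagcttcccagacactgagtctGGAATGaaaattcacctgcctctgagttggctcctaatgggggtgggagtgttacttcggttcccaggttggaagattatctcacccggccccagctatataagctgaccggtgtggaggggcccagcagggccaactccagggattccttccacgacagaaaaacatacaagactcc
AXL: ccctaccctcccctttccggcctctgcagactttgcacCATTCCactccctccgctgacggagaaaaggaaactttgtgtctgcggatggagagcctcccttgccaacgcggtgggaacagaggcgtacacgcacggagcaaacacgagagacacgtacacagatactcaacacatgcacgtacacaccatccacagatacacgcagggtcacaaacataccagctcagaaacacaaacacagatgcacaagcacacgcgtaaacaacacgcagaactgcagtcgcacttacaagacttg
NUAK2: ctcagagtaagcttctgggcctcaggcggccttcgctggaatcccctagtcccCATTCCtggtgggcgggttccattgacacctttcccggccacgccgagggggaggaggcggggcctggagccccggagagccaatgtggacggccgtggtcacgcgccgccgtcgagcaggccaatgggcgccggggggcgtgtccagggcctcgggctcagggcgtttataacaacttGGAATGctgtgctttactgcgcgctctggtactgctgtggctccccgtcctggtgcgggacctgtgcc
AMOTL2: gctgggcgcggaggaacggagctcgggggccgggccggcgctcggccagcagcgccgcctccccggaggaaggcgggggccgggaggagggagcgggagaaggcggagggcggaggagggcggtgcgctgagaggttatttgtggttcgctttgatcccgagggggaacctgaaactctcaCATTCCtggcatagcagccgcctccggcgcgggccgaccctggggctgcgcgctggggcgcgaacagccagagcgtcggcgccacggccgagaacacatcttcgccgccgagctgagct
WTIP: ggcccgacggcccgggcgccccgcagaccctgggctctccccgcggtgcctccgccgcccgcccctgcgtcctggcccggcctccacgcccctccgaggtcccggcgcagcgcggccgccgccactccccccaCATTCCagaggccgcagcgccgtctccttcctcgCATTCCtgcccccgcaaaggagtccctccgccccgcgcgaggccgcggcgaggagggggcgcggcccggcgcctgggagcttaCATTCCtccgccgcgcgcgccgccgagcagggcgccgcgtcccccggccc
The ANKRD1 window lies at chr10:90921038-90921337 on the minus strand, and its matches begin 220 and 128 bases before the start. That of AXL lies at chr19:41226505-41226804 on the plus strand and belongs to the downstream of the gene's starts, with a match 212 bases before it, and the window of the upstream start held none. NUAK2 lies at chr1:205321696-205321995 (minus), with matches 197 and 18 bases before the start. The AMOTL2 window lies at chr3:134374398-134374697 (minus), at the downstream of the gene's starts, with a match 69 bases before it. The window of the upstream AMOTL2 start held none. WTIP lies at chr19:34481508-34481807 (plus), with matches that begin 117, 83 and 0 bases before the start. The windows of F3 and FJX1, which rose as well, held no match. Neither did those of MYOF, RBMS3, NF2, WWC1, VGLL3, TEAD3 and STK4, which also rose. AJUBA (at the downstream start only), LATS2 and PTPN14 held 1 match each, and so did YAP1, which fell.

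The transcripts of both coactivators were lower in collagen. YAP1 was at 269, 278 and 269 CPM in KO droplets, 223, 241 and 236 CPM in KO at 24 h and 225, 248 and 243 CPM in KO at 48 h. In WT spheroids it was at 309, 325 and 344 CPM in WT droplets, 286, 286 and 285 CPM in WT at 24 h and 288, 293 and 300.1 CPM in WT at 48 h. All 9 KO libraries were below all 9 WT libraries, and within each genotype the collagen libraries were below the droplets. The fall was small, at -0.22 (SE 0.0495) in KO and -0.19 (SE 0.0493) in WT at 24 h and -0.19 (SE 0.0495) in KO and -0.15 (SE 0.0493) in WT at 48 h. The last of these calls (adjusted p = 0.012) was lost without replicate 3 of the WT droplets (adjusted p = 0.0987) and without the filter on low counts (0.0552). WWTR1, which encodes TAZ, was at 344, 324 and 387 CPM in KO droplets, 187, 209 and 195 CPM in KO at 24 h and 189, 188 and 191 CPM in KO at 48 h. WT values were 293, 305 and 326 CPM in WT droplets, 169, 156 and 157 CPM in WT at 24 h and 189, 171 and 161 CPM in WT at 48 h. Collagen libraries lay well below the droplets in both genotypes, with log2 fold changes of -0.84 (SE 0.0662, adjusted p = 9.96e-10) in KO and -0.94 (SE 0.0665, adjusted p = 1e-10) in WT at 24 h and -0.89 and -0.83 at 48 h. Per kb of exon, the ratio of WWTR1 to YAP1 was 0.632 ± 0.0148 in KO at 24 h and 0.595 ± 0.0301 in KO at 48 h, against 0.969 ± 0.105 in KO droplets. In WT it was 0.42 ± 0.0189 at 24 h and 0.443 ± 0.0451 at 48 h, against 0.707 ± 0.0042 in droplets (SD, n = 3 each).

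Among the components as a whole, 9 of 23 rose and 8 fell in KO at 24 h and 9 rose and 7 fell in KO at 48 h. In WT 10 rose and 6 fell at 24 h, and 11 rose and 4 fell at 48 h. Over all genes 25.5% rose and 25.7% fell in KO at 24 h and 25.8% and 23.6% did at 48 h, and in WT 27.8% and 28.7% did at 24 h and 27.7% and 27.5% at 48 h. The median log2 fold change of the 23 was -0.04 in KO at both times, and 0.10 and 0.17 in WT at 24 h and 48 h.

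The TEAD genes, which encode the DNA-binding partners, differed from each other. TEAD2 was at 66.8, 67.9 and 60.7 CPM in KO droplets, 34.6, 36.1 and 34.2 CPM in KO at 24 h and 38.5, 30.6 and 31.96 CPM in KO at 48 h. WT spheroids had 64.6, 61.1 and 54.3 CPM in WT droplets, 27.5, 26.9 and 23.1 CPM in WT at 24 h and 26.9, 24.8 and 20.98 CPM in WT at 48 h. It fell in collagen in both genotypes, with log2 fold changes of -0.90 (SE 0.0918, adjusted p = 8.53e-08) in KO and -1.22 (SE 0.0938, adjusted p = 8.04e-10) in WT at 24 h and -0.95 in KO and -1.31 in WT at 48 h. TEAD3 went the other way, with 48.4 to 54.3 CPM in KO collagen and 34.96 to 37.5 CPM in KO droplets, and 58.3 to 68.04 CPM in WT collagen and 46.9 to 52.02 CPM in WT droplets. Its log2 fold changes were 0.28 to 0.54. TEAD1 did not pass in KO, at -0.02 (-0.18 to 0.14, 95% interval) at 24 h, and in WT it passed at 48 h (0.21, SE 0.0752), a call lost without any 1 of the WT libraries of droplets 1 or 2 or of 48 h. TEAD4 was at 14.5, 14.4 and 13.6 CPM in KO droplets, 16.3, 15.1 and 16.8 CPM in KO at 24 h and 16.3, 18.1 and 17.2 CPM in KO at 48 h. WT values were 8.97, 10.6 and 12.1 CPM in WT droplets, 16.98, 17.2 and 17.2 CPM in WT at 24 h and 18.95, 17.1 and 20.1 CPM in WT at 48 h. TEAD4, whose values were chosen for print after they were seen, rose in WT by 0.69 (SE 0.0923) at 24 h and in KO by 0.28 (SE 0.0905) at 48 h, with 0.18 (-0.01 to 0.38) in KO at 24 h. The KO call at 48 h was lost without replicate 3 of the KO droplets or replicate 2 of KO at 48 h (adjusted p = 0.0645 and 0.0688).

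Taken per kb of exon, the summed level of the 4 TEAD genes was 62 ± 0.556 in KO at 24 h against 66.3 ± 1.45 in KO droplets, and 65.2 ± 0.655 in WT at 24 h against 67.3 ± 1.08 in WT droplets. The shares of TEAD2 and TEAD3 in that sum did not overlap between collagen and droplets at 24 h. TEAD2 gave 18.9 ± 0.51% of the sum in KO at 24 h against 33 ± 1.51% in KO droplets, and 13.3 ± 1.33% in WT at 24 h against 29.9 ± 2.42% in WT droplets. TEAD3 gave 27.8 ± 1.14% against 17.9 ± 0.351% in KO, and 33.4 ± 0.915% against 23.7 ± 1.06% in WT. TEAD1 was the largest part in every group, with means of 39.4 to 46.2%. Of the cofactors that bind TEADs, VGLL3 rose and VGLL4, a repressor that competes with YAP, fell. VGLL3 was at 3.89, 4.55 and 4.097 CPM in KO droplets, 12.2, 15.1 and 15.7 CPM in KO at 24 h and 10.7, 15.7 and 15.6 CPM in KO at 48 h. In WT it was at 5.52, 5.92 and 4.59 CPM in WT droplets, 16.6, 12.9 and 17.99 CPM in WT at 24 h and 14.1, 15.8 and 15.2 CPM in WT at 48 h. The collagen libraries were all above the droplets, with log2 fold changes of 1.78 (SE 0.158, adjusted p = 1.4e-08) in KO and 1.57 (SE 0.153, adjusted p = 2.83e-08) in WT at 24 h. VGLL4 was at 79.7 to 88.4 CPM in KO collagen and 107 to 111 CPM in KO droplets, and at 49.95 to 69.2 CPM in WT collagen and 92.7 to 100.2 CPM in WT droplets. It fell, with log2 fold changes of -0.34 and -0.43 in KO and -0.56 and -0.79 in WT at 24 h and 48 h. TEAD2 and VGLL4 share 10.7% and 23.7% of their exon bases with genes on the opposite strand (CD37 and ATG7), and YAP1 and WWTR1 share 10.0% and 9.4%, so these levels are uncertain where counting ignored strand.

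**Figure D2:**
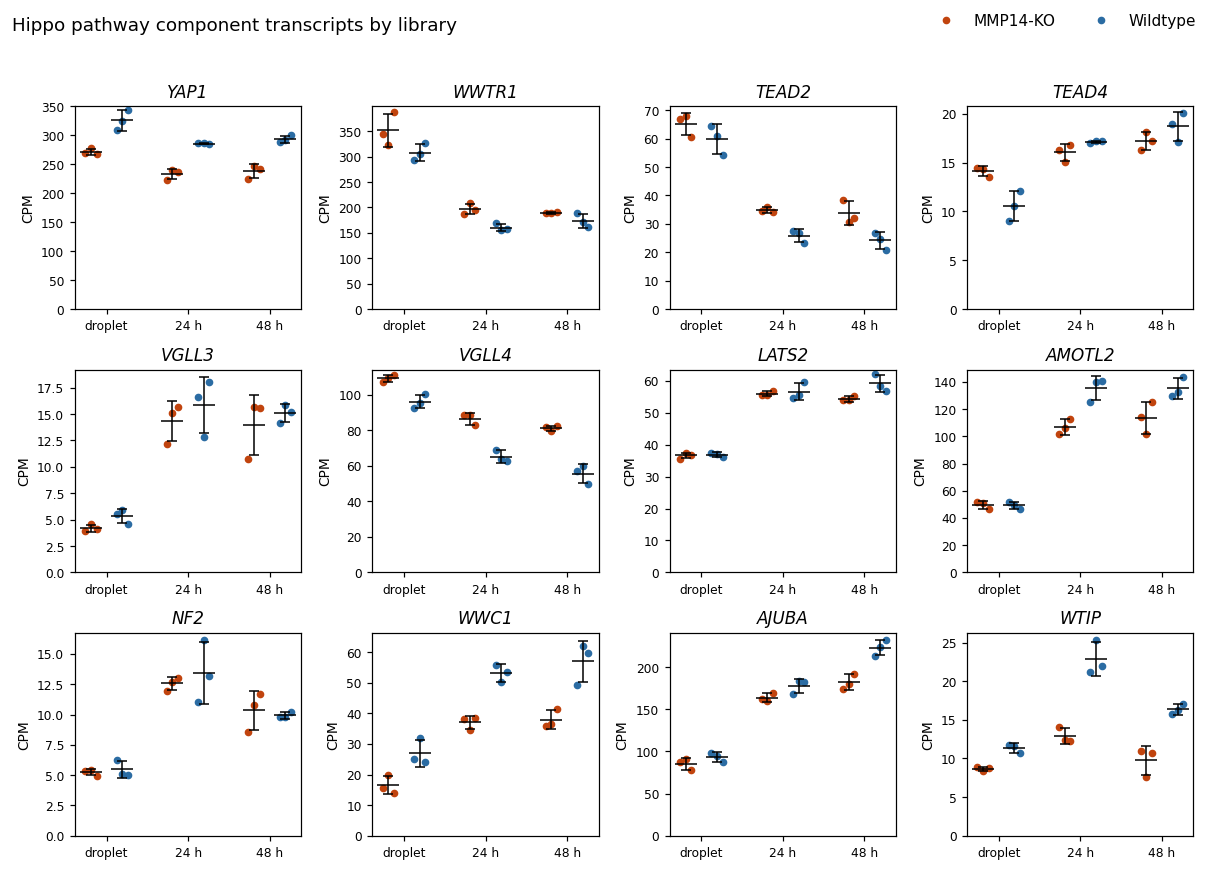
CPM of 12 of the 23 components in each library (points), with the group mean (horizontal line) and SD (bars, n = 3), by condition, MMP14-KO left of Wildtype. The vertical axes are linear, start at 0 and differ between genes. WWTR1, TEAD2 and VGLL4 were lower in collagen than in droplets, AMOTL2, VGLL3, NF2, WWC1 and AJUBA were higher, and TEAD4, VGLL4 and LATS2 were chosen for the plot after their values were seen.

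In the kinase core the rises were of LATS2 and STK4. LATS2 was at 53.8 to 56.8 CPM in KO collagen and 35.6 to 37.3 CPM in KO droplets, and at 54.6 to 62.1 CPM in WT collagen and 36.1 to 37.5 CPM in WT droplets. Its log2 fold changes were 0.61 (SE 0.0523) in KO and 0.62 (SE 0.0523) in WT at 24 h. LATS1, its paralog, was at 41.3 to 53.9 CPM in KO and 40.9 to 50.8 CPM in WT over all conditions, and passed only in WT at 24 h (-0.24). STK4 rose by 0.31 (SE 0.0634) in KO and 0.48 (SE 0.0634) in WT at 24 h. STK3 fell in KO at 24 h (-0.27, SE 0.0759), while its WT value was 0.10 (-0.06 to 0.27). SAV1, MOB1A and MOB1B had log2 fold changes between -0.33 and 0.12, with SAV1 lower at 24 h in both genotypes (-0.13 in KO and -0.12 in WT) and MOB1B lower in KO at 48 h (-0.33). The SAV1 calls were lost without any of several single libraries, and 14.9% of its exon bases are shared with ATL1 on the opposite strand.

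Upstream of the kinases, NF2, WWC1 and AMOTL2 rose. NF2 encodes merlin, a membrane-linked activator of LATS kinases, and MDA-MB-231 is known for a loss-of-function NF2 mutation. Its transcript was low, at 5.35, 5.46 and 4.95 CPM in KO droplets, 11.96, 12.7 and 13.01 CPM in KO at 24 h and 8.59, 10.8 and 11.7 CPM in KO at 48 h. WT spheroids had 6.26, 5.102 and 5.04 CPM in WT droplets, 11.1, 16.2 and 13.1 CPM in WT at 24 h and 9.79, 9.77 and 10.2 CPM in WT at 48 h. Collagen libraries were above droplet libraries in both genotypes, by 1.26 (SE 0.131) in KO and 1.31 (SE 0.131) in WT at 24 h. WWC1, known as KIBRA, a scaffold that works with merlin, was at 15.7, 19.7 and 14.1 CPM in KO droplets, 38.1, 34.6 and 38.5 CPM in KO at 24 h and 35.7, 36.5 and 41.4 CPM in KO at 48 h. WT values were 25, 32.1 and 24.01 CPM in WT droplets, 55.8, 50.1 and 53.6 CPM in WT at 24 h and 49.3, 61.9 and 59.8 CPM in WT at 48 h. All KO libraries were below all WT libraries of their condition, and WWC1 rose by 1.17 (SE 0.126) in KO and 0.97 (SE 0.119) in WT at 24 h. AMOTL2, an angiomotin that can hold YAP in the cytoplasm, was at 51.7, 50.9 and 46.3 CPM in KO droplets, 102, 106 and 113 CPM in KO at 24 h and 114, 102 and 125 CPM in KO at 48 h. In WT it was at 51.5, 49.7 and 46.6 CPM in WT droplets, 125, 140 and 141 CPM in WT at 24 h and 129.5, 132 and 144 CPM in WT at 48 h. Droplet values overlapped between genotypes, and collagen values did not. The rise was 1.11 (SE 0.0718, adjusted p = 5.04e-11) in KO and 1.46 (SE 0.072, adjusted p = 3.78e-13) in WT at 24 h, and 1.20 and 1.46 at 48 h.

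AMOTL1, another angiomotin, had 118 to 134 CPM in KO collagen and 145 to 159 CPM in KO droplets, and 138 to 149.8 CPM in WT collagen and 129 to 151 CPM in WT droplets. It fell in KO (-0.25, SE 0.0608 at 24 h) and did not pass in WT, at 0.05 (-0.08 to 0.19). AMOT, with 0.182 to 0.8195 CPM in KO and 0.0432 to 0.188 CPM in WT, was close to the floor of 3 counts (0.0921 to 0.149 CPM), so its fold changes are not read, although it counts among the calls. PTPN14, a phosphatase that binds YAP, passed in none of the 4 collagen comparisons, with log2 fold changes of -0.19 to 0.17.

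Of the LIM proteins that restrain LATS kinases, AJUBA was at 87.4, 90.6 and 77.7 CPM in KO droplets, 162, 159 and 169.8 CPM in KO at 24 h and 174, 180.4 and 192 CPM in KO at 48 h. WT values were 98.7, 94.95 and 87.1 CPM in WT droplets, 168, 184 and 182 CPM in WT at 24 h and 214, 224 and 232 CPM in WT at 48 h. It rose by 0.94 (SE 0.0619) in KO and 0.93 (SE 0.0617) in WT at 24 h and by 1.10 and 1.26 at 48 h. WTIP was at 8.84, 8.37 and 8.81 CPM in KO droplets, 14.1, 12.4 and 12.3 CPM in KO at 24 h and 11.01, 7.61 and 10.7 CPM in KO at 48 h. WT spheroids had 11.8, 11.7 and 10.7 CPM in WT droplets, 21.2, 25.3 and 21.98 CPM in WT at 24 h and 15.7, 16.3 and 17.1 CPM in WT at 48 h. Every WTIP library of KO was below every one of WT in the same condition. WTIP rose by 0.57 (SE 0.111) in KO and 1.01 (SE 0.104) in WT at 24 h, and at 48 h by 0.53 (SE 0.107) in WT, with 0.18 (-0.07 to 0.43) in KO.

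The genes that passed were largely shared by the genotypes, whose libraries are separate in these comparisons. At 24 h 19 of the 36 genes rose in both, which is 100% of those that rose in KO and 90.5% of those that rose in WT, and over all genes the shares were 77.2% and 70.6%. In both genotypes 6 genes fell (YAP1, WWTR1, TEAD2, VGLL4, SAV1 and NUAK2), which is 66.7% of the falls in KO and 85.7% of those in WT, against 79.2% and 70.9% over all genes. At 48 h 19 rose in both (100% and 86.4%, over all genes 74.6% and 69.5%) and 5 fell in both (62.5% and 100%, over all genes 80% and 68.6%).

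**Figure D3:**
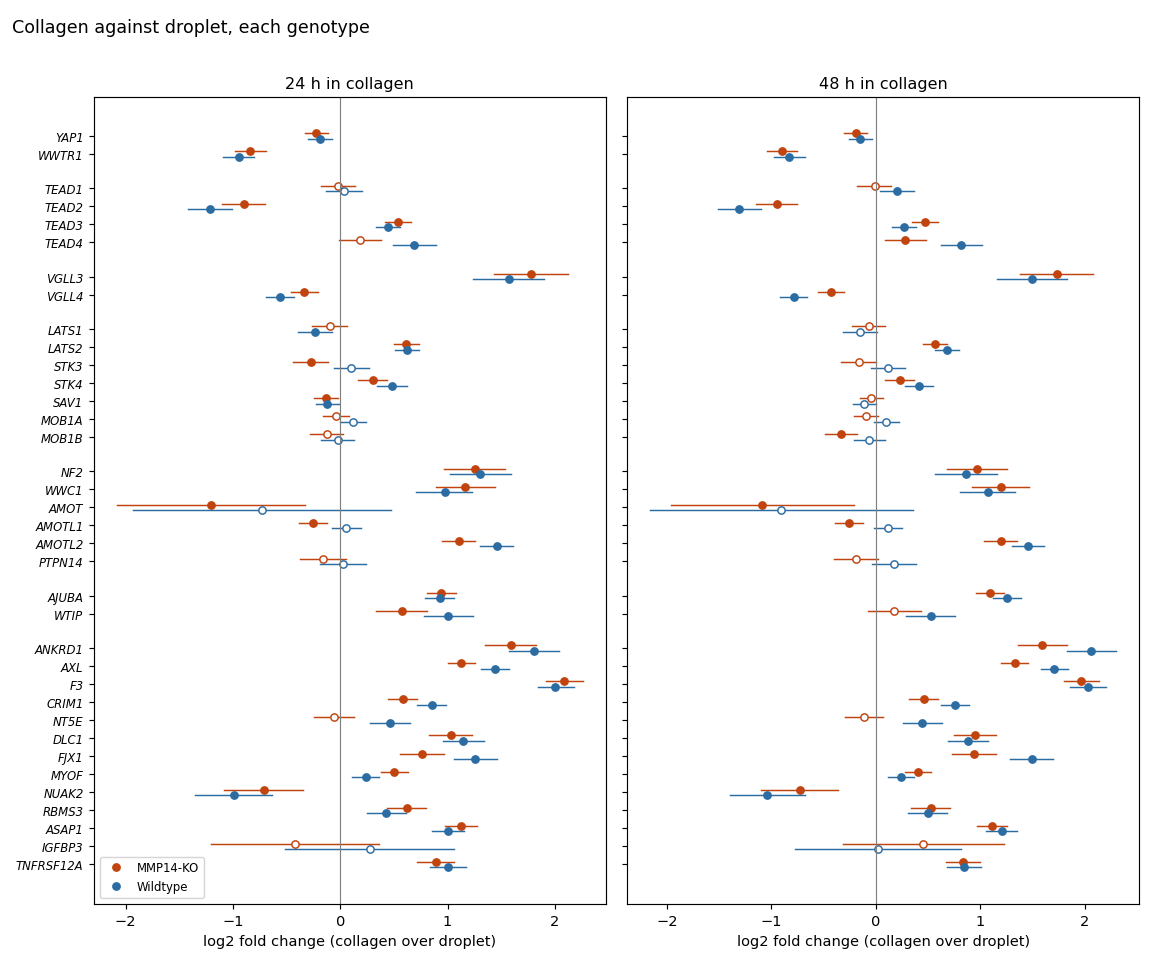
Log2 fold change of collagen over droplet for the 36 genes (points) with 95% intervals (lines), MMP14-KO above Wildtype for each gene, at 24 h (left) and 48 h (right). Filled points passed the adjusted threshold and open points did not. Components run from YAP1 to WTIP on both sides of 0, and 11 of the 13 targets, from ANKRD1 to TNFRSF12A, were higher in WT, with NUAK2 at -0.71 in KO and -0.99 in WT at 24 h.

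Between 24 h and 48 h in collagen little of the set moved. In KO 1 component, WTIP, fell (-0.40, SE 0.112, adjusted p = 0.0496) and 0 rose, and 0 targets passed, where 2.07% of all genes rose and 1.73% fell. At an unadjusted p under 0.05, 2975 genes of all passed in this KO comparison by edgeR, against 648 after adjustment, and DESeq2 called 2 of the 36 genes. The WTIP call stands at the threshold and was lost without any 1 of 12 libraries, or when only the 2 groups compared were fitted (adjusted p = 0.137). Of all calls, 54.5% were higher, or 44.2% when libraries were scaled by their totals alone. In WT 1 component rose and 4 fell, and 2 targets rose and 1 fell, where 6.32% of all genes rose and 6.88% fell. AJUBA (0.33, SE 0.0603), AXL (0.27, SE 0.0592) and ASAP1 (0.20, SE 0.0647) were higher at 48 h, and WTIP (-0.48, SE 0.101), NF2 (-0.44, SE 0.123), DLC1 (-0.27, SE 0.083), VGLL4 (-0.23, SE 0.0601) and TEAD3 (-0.17, SE 0.0535) were lower. These 8 calls became 4 without replicate 2 of WT at 24 h or replicate 2 of WT at 48 h, and 5 without replicate 1 or replicate 3 of WT at 48 h. The ASAP1 call was lost without any 1 of 15 libraries, and with RLE or library-size scaling (adjusted p = 0.0614 and 0.0818), while AJUBA, AXL and WTIP were called under all 25 alternatives. The summed immediate-early genes fell over the same interval, with 17 of 22 lower in KO and 18 of 22 lower in WT.

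KO spheroids were set against WT spheroids within each condition. The targets were lower in KO where they differed, with NT5E in droplets as the exception. In droplets 1 target was higher and 4 were lower, where 7.70% of all genes were higher and 9.70% lower. At 24 h 0 targets were higher and 6 lower, where 13.7% of all genes were higher and 15.7% lower. At 48 h 0 were higher and 7 lower, where 14.4% and 15.1% of all genes were. The median log2 fold change of the 13 was -0.18, -0.15 and -0.18 in the 3 conditions, and that of all genes was -0.001, 0.005 and 0.001. Against the same shares of all genes, the components had calls in both directions. In droplets 5 of 23 were higher and 4 lower, at 24 h 3 were higher and 7 lower, and at 48 h 3 were higher and 10 lower.

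These genotype counts depended on scaling and on single libraries to a degree. When libraries were scaled by their totals alone, the lower targets numbered 4, 5 and 5 in the 3 conditions and the lower components 4, 6 and 7. The share of all calls that were higher then became 61.9% at 24 h and 64.3% at 48 h, against 46.5% and 48.9% with the TMM factors used throughout. In droplets the 14 calls among the 36 genes became 9 without replicate 2 of WT droplets, and the higher components numbered 2 or 3 instead of 5 without any 1 of 9 libraries. At 48 h the 20 calls became 13, and the 10 lower components 6, without replicate 3 of WT at 48 h.

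A subset of 7 genes was lower in KO in all 3 conditions, namely YAP1, TEAD3, WWC1, WTIP, AXL, F3 and DLC1. That is 7 of 36 (19.4%), against 640 of the 17030 genes (3.76%). VGLL4 alone was higher in all 3, against 618 of all genes (3.63%). The 36 genes were chosen with earlier results of these data known, so these shares lend no separate support. AXL had the smallest p-values of the set in collagen, with -0.38 (SE 0.0599, adjusted p = 0.000107) in droplets, -0.69 (SE 0.0595, adjusted p = 3.45e-08) at 24 h and -0.76 (SE 0.0596, adjusted p = 7.49e-09) at 48 h. F3 had log2 fold changes of -0.32, -0.24 and -0.39 in the 3 conditions. Its call in droplets was lost without replicate 2 of WT droplets (adjusted p = 0.0544), and that at 24 h without replicate 2 or 3 of WT or replicate 2 of KO at 24 h (0.0771, 0.105 and 0.0839). The F3 call at 24 h was also lost when libraries were scaled by their totals alone, and 21 of the 25 alternatives kept it. DLC1 had log2 fold changes of -0.43 (SE 0.0941), -0.55 (SE 0.0842) and -0.35 (SE 0.0864). YAP1 was lower by a like amount in each condition, at -0.26 (SE 0.0493), -0.29 (SE 0.0495) and -0.30 (SE 0.0496).

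Among the components, WWC1 had log2 fold changes of -0.71 (SE 0.127) in droplets, -0.52 (SE 0.117) at 24 h and -0.59 (SE 0.117) at 48 h. WTIP had -0.39 (SE 0.111), -0.83 (SE 0.103) and -0.74 (SE 0.11), and its call in droplets (adjusted p = 0.0174) was lost without replicate 1 or 2 of WT droplets or replicate 2 of KO droplets. TEAD3 had -0.43 (SE 0.0553), -0.34 (SE 0.0538) and -0.23 (SE 0.0546). VGLL4, the higher one, had 0.18 (SE 0.0579), 0.41 (SE 0.0591) and 0.54 (SE 0.0601), and the droplet call (adjusted p = 0.0308) was lost without any 1 of 4 droplet libraries. WWTR1 was higher in KO at 24 h (0.30, SE 0.0664). Its call in droplets (0.19, SE 0.0654, adjusted p = 0.0471) was lost without any 1 of 9 libraries, and at 48 h the value was 0.12 (-0.02 to 0.27).

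**Figure D4:**
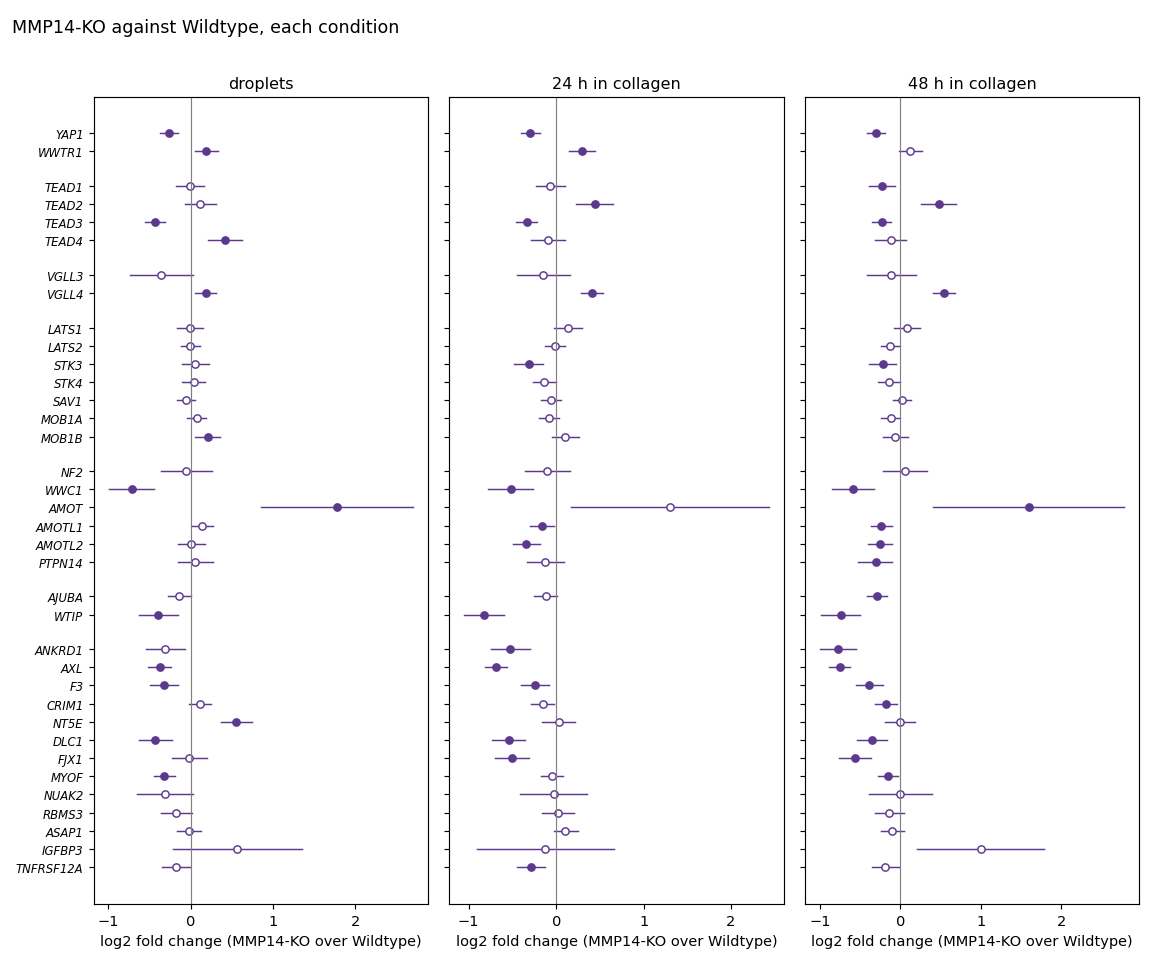
Log2 fold change of MMP14-KO over Wildtype for the 36 genes (points) with 95% intervals (lines), in droplets (left), at 24 h (middle) and at 48 h (right) in collagen. Filled points passed the adjusted threshold and open points did not. YAP1, TEAD3, WWC1, WTIP, AXL, F3 and DLC1 lay left of 0 in all 3 panels, and the wide intervals belong to AMOT and IGFBP3.

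Other differences were seen in 1 or 2 conditions. ANKRD1 was lower in KO at 24 h (-0.53, SE 0.103, adjusted p = 0.00129) and 48 h (-0.78, SE 0.104, adjusted p = 4.84e-05), and in droplets it missed the threshold at -0.31 (adjusted p = 0.0598). FJX1 was lower at 24 h (-0.51, SE 0.0897) and 48 h (-0.57, SE 0.0892), with -0.01 (-0.23 to 0.20) in droplets. TNFRSF12A was lower at 24 h (-0.29, SE 0.0745). CRIM1 (-0.18, SE 0.063) and MYOF (-0.15, SE 0.0573) were lower at 48 h. Both calls were lost without replicate 3 of WT or replicate 1 of KO at 48 h (-0.12 and -0.08 without that KO library). They were also lost when libraries were scaled by their totals. Of the 25 alternatives, 18 kept the CRIM1 call and only 10 kept the MYOF call. MYOF was also lower in droplets (-0.32, SE 0.0574). IGFBP3 was higher by 1.00 at 48 h without passing (adjusted p = 0.0546), where DESeq2 called it (adjusted p = 0.0303), and its log2 fold change there was 0.24 without the KO library that stands apart.

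TEAD2 was higher in KO at 24 h (0.44, SE 0.0959) and 48 h (0.48, SE 0.0977), and TEAD4 in droplets (0.41, SE 0.0934). MOB1B was also higher in KO in droplets (0.21), a call that 15 of the 25 alternatives kept. AMOTL2 was lower at 24 h (-0.34, SE 0.0692) and 48 h (-0.25, SE 0.0694). AJUBA was lower at 48 h (-0.29, SE 0.0605). STK3 (-0.32 and -0.22) and AMOTL1 (-0.17 and -0.23) were lower at 24 h and 48 h, and the AMOTL1 call at 24 h was lost without any 1 of 13 libraries. Only 8 of the 25 alternatives kept that AMOTL1 call. TEAD1 and PTPN14 were lower at 48 h (-0.23 and -0.31). The 48 h calls of STK3, TEAD1, PTPN14 and AMOTL2 were lost without replicate 3 of WT at 48 h, among other alternatives. Of the 25 alternatives, 17 kept the STK3 call, 19 each the TEAD1 and PTPN14 calls, and 23 the AMOTL2 call. Without replicate 1 of KO at 48 h TEAD1 and PTPN14 stood at -0.10 and -0.16. LATS1, LATS2, STK4, SAV1, MOB1A, NF2, VGLL3, NUAK2, RBMS3 and ASAP1 passed in no condition, which does not show that the genotypes are alike. For LATS2 the 95% intervals were -0.12 to 0.11 in droplets, -0.13 to 0.10 at 24 h and -0.24 to -0.01 at 48 h.

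Whether the response to collagen differed by genotype was asked with interaction terms, the log2 fold change of collagen over droplet in KO minus that in WT. These share their libraries with the comparisons above, and both times share the droplets. At 24 h 0 components were above 0 and 4 below, and 1 target was above and 3 below, where 3.32% of all genes were above and 4.09% below. At 48 h 1 component was above and 2 below, and 0 targets above and 4 below, where 4.0% and 2.78% of all genes were. Of all calls at 24 h and 48 h, 44.8% and 59.0% were above 0, or 59.0% and 73.9% with libraries scaled by their totals.

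AXL rose less in KO than in WT, with an interaction of -0.31 (SE 0.0842, adjusted p = 0.0285) at 24 h and -0.38 (SE 0.0842, adjusted p = 0.0131) at 48 h. FJX1 also rose less (-0.49, SE 0.133, adjusted p = 0.0273 and -0.55, SE 0.133, adjusted p = 0.0187), and AMOTL2 did at 24 h (-0.35, SE 0.101, adjusted p = 0.0362). For NT5E (-0.53, SE 0.12 and -0.56, SE 0.12) and TEAD4 (-0.51, SE 0.129 and -0.54, SE 0.129) the KO droplets were already higher. NT5E was at 632, 609 and 732 CPM in KO droplets and 409, 416 and 518 CPM in WT droplets, and at 582 to 668 CPM in KO collagen and 569 to 648 CPM in WT collagen, so the genotypes overlapped in collagen and not in droplets. NT5E was chosen for print after its values were seen. AMOTL1 (-0.30 and -0.37), STK3 at 24 h (-0.38) and CRIM1 at 48 h (-0.30) were also below 0. VGLL4 at 48 h (0.36), which fell less in KO, and MYOF at 24 h (0.27) were above 0. F3, which differed between genotypes in level, had interactions of 0.08 (-0.15 to 0.31) and -0.06 (-0.30 to 0.17).

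Single libraries decided many of these calls. The 8 calls at 24 h became 0 without replicate 3 of WT at 24 h, and 1 to 5 without any 1 of 7 other libraries (WT droplets 1 and 2, KO droplets 3, WT 24 h 2, KO 24 h 1 and 2, WT 48 h 2). The 7 calls at 48 h became 3 without replicate 3 of WT at 48 h and 4 without replicate 1 of WT droplets. Between 48 h and 24 h the interaction gave 0 calls among the 36 genes and 0% of all genes in either direction by edgeR, while 1107 genes had an unadjusted p under 0.05 and DESeq2 called 5 above and 5 below 0 over all genes.

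A further list of 20 genes named elsewhere as YAP-TAZ targets was counted beside the 13, and 19 of them were tested. This list too was chosen with earlier results of these data known, so its counts lend no separate support. In KO 15 rose and 2 fell at 24 h, and 16 rose and 2 fell at 48 h. In WT 17 rose and 2 fell at 24 h, and 15 rose and 2 fell at 48 h. Of all genes 25.5% rose and 25.7% fell in KO at 24 h, 25.8% and 23.6% in KO at 48 h, 27.8% and 28.7% in WT at 24 h, and 27.7% and 27.5% in WT at 48 h. EDN1, the endothelin precursor, averaged 43.1 CPM in KO at 24 h against 2.43 CPM in KO droplets, and 84.85 CPM in WT at 24 h against 4.195 CPM in WT droplets. This was the largest rise of the list, with log2 fold changes of 4.15 (SE 0.173) in KO and 4.34 (SE 0.158) in WT. The adaptor DAB2 and the transglutaminase TGM2 fell in both genotypes. From 24 h to 48 h 1 rose and 3 fell in KO (2.07% and 1.73% of all genes), and 2 rose and 6 fell in WT (6.32% and 6.88% of all genes), with EDN1 lower at 48 h than at 24 h in KO (-0.62) and in WT (-0.80). Between genotypes, 5 were higher and 5 lower in KO droplets (7.70% and 9.70% of all genes), 2 higher and 8 lower at 24 h (13.7% and 15.7%), and 3 higher and 8 lower at 48 h (14.4% and 15.1%). EDN1 was the lowest of these in collagen (-0.98, SE 0.122, at 24 h), and INHBA, an activin subunit, was the highest in droplets (0.90, SE 0.103).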

How the data were processed

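Libraries were grouped by the genotype and treatment labels. The genome was GRCh38 and the tools were RSEM 1.3.3, STAR 2.7.8a, cutadapt 2.3, DESeq2 1.42.0, MultiQC 1.7 and FastQC 0.11.8, per the submitters' processing notes, which give no order or role. The deposited values are RSEM expected counts per gene, all whole numbers already. Strand setting and annotation release: not given in the sources used here. In addition, 4 reporter rows at 0 were left out. From these counts, R 4.3.3 with edgeR 4.0.16 (limma 3.58.1) was used here: filterByExpr on the 6 groups (minimum count 10), TMM scaling, 1 coefficient per group over the 18 libraries (12 residual degrees of freedom), robust quasi-likelihood F tests of 12 contrasts, and Benjamini-Hochberg adjustment over 17030 genes at 0.05. The SE is the absolute log2 fold change over the square root of F. Levels are TMM-scaled CPM, and exon lengths, coordinates and overlaps come from GENCODE 29. The code was tested on simulated data. Floors of 3 counts cover counting error only.

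The genes, their roles and the other lists were chosen with earlier results of these data known. Values by library are printed for genes with at least 5 CPM in a group, a call and an absolute log2 fold change of at least 0.5, up to 8 components and 10 targets, and always for YAP1 and WWTR1. From the other lists, up to 3 rises and 3 falls per comparison could be named. Alternatives were RLE and library-size scaling, no filter, a minimum count of 50, a replicate block, only the groups compared, DESeq2, and leaving out each library.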

Additional observations from a re-analysis of the deposited data

Results flagged for a closer look

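For 10 genes the change from droplets to collagen differed between the genotypes by the interaction term, given as log2 units (KO response minus WT response) with adjusted p from edgeR's quasi-likelihood test. At 24 h TEAD4 had -0.51 (adjusted p = 0.0216), STK3 -0.38 (0.0351), AMOTL1 -0.30 (0.0338) and AMOTL2 -0.35 (0.0362). Among targets at 24 h, AXL had -0.31 (adjusted p = 0.0285), NT5E -0.53 (0.0142), FJX1 -0.49 (0.0273) and MYOF 0.27 (0.0476). At 48 h TEAD4 had -0.54 (adjusted p = 0.0197), AMOTL1 -0.37 (0.0156) and VGLL4 0.36 (0.0156). Among targets at 48 h, AXL had -0.38 (adjusted p = 0.0131), CRIM1 -0.30 (0.0479), NT5E -0.56 (0.0131) and FJX1 -0.55 (0.0187). Both times share the droplet libraries, and the libraries are those of the comparisons above. Of the 25 alternatives, 9 kept the MYOF call at 24 h, 10 the CRIM1 call at 48 h and 14 the AMOTL2 call at 24 h. The AXL and NT5E calls at 48 h were kept under all 25. Without replicate 3 of WT at 24 h, 0 of the calls at 24 h were left. Groups of 3 libraries are too small for a test of single libraries that stand apart.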

How the results depend on the processing

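Over 12 comparisons and 25 alternatives, 10781 log2 fold changes of the 36 genes were recomputed: 10392 kept their side of the threshold, 276 calls were lost, 113 were gained and 0 called values changed sign. The calls from droplets to collagen were the most stable, with 26 to 29 at 24 h and 25 to 28 at 48 h in KO, and 27 to 29 and 26 to 30 in WT, when each library was left out in turn. Leaving out 1 library gave 9 to 16 calls between KO and WT in droplets (14 with all), 14 to 17 at 24 h (16) and 13 to 21 at 48 h (20), 0 to 2 between 48 h and 24 h in KO (1), and 4 to 9 in WT (8). The interaction gave 0 to 10 calls at 24 h (8) and 3 to 9 at 48 h (7). With library-size scaling the 24 h interaction gave 5 calls, the lower components there 1. Without a filter the 48 h interaction gave 13 calls and the interaction between 48 h and 24 h gave 1 (IGFBP3). For KO at 48 h against 24 h, no filter gave 3 calls, a minimum count of 50 gave 2, DESeq2 gave 2 and the fit of only the groups compared gave 0. With replicate number as a block that comparison gave 3 calls, and over all genes 430 rises and 379 falls, against 353 and 295 without it. What the numbers share is not stated in the labels. Deviations from group means correlated at -0.0701 to 0.137 between same-numbered libraries and at -0.144 to 0.114 between different-numbered ones. Of 18 libraries, 7 correlated best with their own number. These correlations cannot show whether the numbers pair the libraries, so the block is given as a value only. The cause of these moves was not tested. Depth limits AMOT, at 1 to 24 counts a library.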

Other observations

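Of 47 further genes upstream in the pathway, such as kinases that can stand in for STK3 and STK4, polarity proteins and RASSF scaffolds, 42 were tested. In KO 14 rose and 9 fell at 24 h and 15 rose and 9 fell at 48 h, and in WT 13 rose and 15 fell at 24 h and 16 rose and 13 fell at 48 h. Over all genes 25.5% rose and 25.7% fell in KO at 24 h and 25.8% and 23.6% at 48 h, and in WT 27.8% and 28.7% at 24 h and 27.7% and 27.5% at 48 h. The list's medians were 0.00 to 0.06 on the log2 scale. TAOK3, a kinase that can activate STK3 and STK4, averaged 137.9 CPM in KO at 24 h against 84.5 CPM in KO droplets (log2 fold change 0.71, SE 0.0562), and 132 CPM in WT at 24 h against 82.7 CPM in WT droplets (0.68, SE 0.0563). MAP4K4, which can phosphorylate LATS kinases directly, averaged 342 CPM in KO at 24 h against 487.5 CPM in KO droplets (-0.51, SE 0.0714), and 356 CPM in WT at 24 h against 507.5 CPM in WT droplets (-0.51, SE 0.0713). LLGL2, a polarity protein, fell in both genotypes (-0.72 in KO and -1.12 in WT at 24 h). RASSF2 averaged 8.21 CPM in KO droplets against 2.602 CPM in WT droplets (1.67, SE 0.205), and fell in KO collagen to 3.105 CPM at 24 h (-1.41, SE 0.202). CSNK1D, a kinase that marks YAP for degradation, was higher in KO in all 3 conditions, by 0.15, 0.33 and 0.36 on the log2 scale (adjusted p = 0.0351, 3.21e-05 and 1.38e-05 by edgeR). The polarity scaffold DLG1 was lower in KO at 48 h (217 against 285 CPM in WT, -0.39, SE 0.0559).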
